A study of Mus musculus with 12 samples.

Results

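KC2 and KC4 are mouse lines, each started from a primary adenocarcinoma of the lung, and the genes that differ between them are described here from 6 of the 12 arrays of the series, 3 for each line. The arrays were chosen by their titles, and each array is a biological replicate of its line per the labels. Both lines carry 1 genotype, K-rasLA1/+; Cdkn1a-/-, on a background labelled 127s, and both were cultured in RPMI 1640 with fetal bovine serum. KC2 is labelled highly metastatic and KC4 poorly metastatic. KC1 and KC3, the other lines, share the genotype and are labelled highly metastatic like KC2. No age is given for the mice, and the labels do not say which of the tumours or animals gave which line. Each class is a single line in this comparison, so a difference between KC2 and KC4 cannot be told apart from a difference between any lines of different tumours.

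The K-rasLA1 allele becomes active in single cells of the animal after a spontaneous recombination, and lung adenocarcinoma is the main tumour that follows. Cdkn1a encodes p21, an inhibitor of the kinases that drive the cell cycle. Carcinoma cells can hold tight junctions, claudins and an epithelial cadherin, or can give some of these up for vimentin, N-cadherin and fibronectin, a shift called the epithelial-mesenchymal transition that factors of the Snail and ZEB families bring about. Amino acid shortage and stress of the endoplasmic reticulum both act through ATF4, a transcription factor that switches on genes for amino acid synthesis, amino acid uptake and the charging of transfer RNA.

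The text returns below to the promoters of 5 genes, which are shown here because their genes belong to the adhesion and ATF4 groups described further on. Each sequence is the 250 bases before the RefSeq transcription start (assembly GRCm38.p6), written 5′ to 3′ along the gene. Capitals in the first 3 mark the E-box CAGGTG or its reverse complement, the hexamer that Snail and ZEB factors bind. Capitals in the last 2 mark TGATGNAA, the core of the element shared by ATF4 and CEBP factors, on either strand.
Cldn4 (chr5:134946935-134947184, minus strand): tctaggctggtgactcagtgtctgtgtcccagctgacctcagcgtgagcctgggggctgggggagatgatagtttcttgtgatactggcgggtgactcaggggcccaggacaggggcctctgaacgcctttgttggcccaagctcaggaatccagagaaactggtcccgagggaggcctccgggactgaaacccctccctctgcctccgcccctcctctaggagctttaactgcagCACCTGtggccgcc
Ap1m2 (chr9:21312334-21312583, minus strand): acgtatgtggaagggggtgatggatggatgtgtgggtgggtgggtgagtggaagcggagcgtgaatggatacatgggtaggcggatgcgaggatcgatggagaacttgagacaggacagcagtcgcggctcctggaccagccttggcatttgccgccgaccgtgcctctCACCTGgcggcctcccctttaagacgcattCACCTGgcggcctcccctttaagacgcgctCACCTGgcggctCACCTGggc
Epcam (chr17:87635729-87635978, plus strand): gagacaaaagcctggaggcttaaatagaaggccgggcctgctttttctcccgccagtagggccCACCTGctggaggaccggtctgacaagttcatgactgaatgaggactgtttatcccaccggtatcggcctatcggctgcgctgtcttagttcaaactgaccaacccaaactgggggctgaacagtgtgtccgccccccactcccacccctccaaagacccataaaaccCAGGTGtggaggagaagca
Asns (chr6:7693210-7693459, minus strand): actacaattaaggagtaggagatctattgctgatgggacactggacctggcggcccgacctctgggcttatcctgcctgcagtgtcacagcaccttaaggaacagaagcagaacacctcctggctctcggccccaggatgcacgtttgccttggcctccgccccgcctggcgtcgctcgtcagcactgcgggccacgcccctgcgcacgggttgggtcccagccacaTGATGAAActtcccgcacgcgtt
Chac1 (chr2:119350992-119351241, plus strand): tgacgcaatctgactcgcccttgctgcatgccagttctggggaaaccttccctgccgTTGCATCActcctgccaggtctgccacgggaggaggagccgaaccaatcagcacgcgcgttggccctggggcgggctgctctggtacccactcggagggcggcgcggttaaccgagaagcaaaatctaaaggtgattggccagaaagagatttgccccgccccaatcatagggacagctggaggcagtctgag
The Ap1m2 promoter holds 4 matches to the E-box and the Epcam promoter 2. The other 3 promoters hold 1 match each to the motif marked in them. A match is a description of the letters and not a binding site.

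A deposited signal is the brightness of a probe set on a linear scale, in arbitrary units, and every array was scaled to the same average. Signals under 16 were set to 16, which is 4.00 on the log2 scale, and 1 probe set stood for each of 18193 genes. All differences are log2 KC2 minus KC4 from limma, with its standard error (SE) and with p-values adjusted over all genes by the Benjamini-Hochberg method. A gene is called when its adjusted p is under 0.05 and its log2 difference is at least 1 in size. A fold is taken between the mean log2 values of the lines. Where all 3 arrays of the dimmer line lie at or under 16, it is a lower bound and is written as at least so many fold. Where only some of them do, their number stands beside the fold, which is no bound and can exceed the ratio of the mean signals. The p-values measure the spread between cultures of these lines, not between tumours. Array medians ran from 106.5 to 128.0, and 15.3% to 18.2% of probe sets lay at the floor. The 5-prime control for 18S ribosomal RNA read 451 ± 86.8 (SD, n = 3) in KC2 and 3305 ± 935 in KC4, so it moved with the lines. The Actb control gave a log2 ratio of 3-prime to 5-prime signal of 0.165 ± 0.0201 in KC2 and 0.0647 ± 0.0285 in KC4, and the Gapdh control -0.331 ± 0.0471 and -0.329 ± 0.0512. The part of the 18S difference in the results was not tested.

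Cdkn1a, the gene deleted in the mice, was bright in both lines at its brighter probe set, which read 5460.3, 6448 and 5785 on the KC2 arrays and 4831, 3876 and 4359 on the KC4 arrays. The arrays did not overlap, and the log2 difference was 0.44 (SE 0.097), with an adjusted p of 0.00606, a difference too small to be called. Its other probe set was at the floor on all 6 arrays, with mean signals of 7.13 in KC2 and 9.24 in KC4. The files do not say which of these probes lie in the deleted part, so neither reading checks a label.

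Markers of cell identity were read in both lines. Cdh1, the epithelial cadherin, read 11805, 9575 and 11963 in KC2 and 15814, 13817 and 16680 in KC4, and Krt18, a simple epithelial keratin, read 16759, 26887 and 20731 in KC2 and 21076, 16491 and 19551 in KC4. Krt8, the partner of Krt18, read 16507, 20950 and 18126 in KC2 and 17809, 14662 and 17319 in KC4. All 3 were bright on every array and not called. Markers of lung epithelium ranged from the floor to bright. Nkx2-1, the lineage factor of lung epithelium, read 24.5, 18.2 and 22.03 in KC2 and 55.6, 25.7 and 54.2 in KC4. Sftpc, a surfactant protein of alveolar type 2 cells, read 90.6, 125 and 98.9 in KC2 and 90.4, 120.5 and 111 in KC4, and Napsa, an alveolar protease used to recognise lung adenocarcinoma, lay under 16 on all 6 arrays. Aqp5, a water channel of alveolar type 1 cells, was bright at 1198 ± 106 in KC2 and 1440 ± 27.2 in KC4 (SD, n = 3), as was Abca3, the lipid transporter of surfactant stores, at 966 ± 80.4 and 799 ± 78.7. Markers of simple epithelium were thus bright in both lines, while Nkx2-1, Sftpc and Napsa were low or at the floor. Of 46 markers of fibroblasts, endothelium, leukocytes, mesothelium and smooth muscle, 30 had a mean signal under 100 in both lines, and limma called 0 of the 46, with 5 at an unadjusted p under 0.05. After adjustment 4 stayed under 0.05 with differences under the size asked for, Egfl7 at 0.70, Cd68 at 0.89, Cd14 at -0.26 and Msln at 0.23. The summed signal of the 10 fibroblast markers ran from 950 to 1385 in KC2 and from 1030 to 1559 in KC4, and that of the 11 leukocyte markers from 1886 to 1949 and from 1766 to 1871. Msln, a mesothelial marker that many adenocarcinomas also express, read 11384 ± 751 in KC2 and 9685 ± 523 in KC4 (SD, n = 3). In whole cultures, fewer cells of a kind and less RNA per cell cannot be told apart.

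In all, 1725 genes, or 9.48% of those tested, were called between KC2 and KC4. The 913 genes called higher in KC2 make 5.02% of all genes, and the 812 called lower make 4.46%. Counts of called genes in the groups below are to be read beside these shares. The median log2 difference over all genes was 0.00. In 1716 of the called genes the KC2 and KC4 arrays did not overlap. Over all genes that share was 43.1%, so lack of overlap alone marks little. A difference of at least 3 on the log2 scale, which is 8-fold, was reached by 98 higher and 97 lower genes. Among the called genes, 42 higher genes lay at the floor on every KC4 array and 40 lower genes on every KC2 array.

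The genes highest in KC2 include surface, junction and secreted proteins. Tmem47, a membrane protein of cell junctions related to claudins, read 4245, 4420.1 and 4684 on the KC2 arrays and 10.4, 6.03 and 1.58 on the KC4 arrays. It was at least 278-fold higher in KC2, where all arrays were bright, and every KC4 array was at the floor. Tm4sf1, a surface protein of the tetraspanin-like family, read 2494, 3437 and 2731 on the KC2 arrays and 8.71, 10.01 and 6.26 on the KC4 arrays, and was at least 179-fold higher. Nid1 encodes nidogen, which links laminin to collagen IV in basement membranes. Its signal was 1804, 1673 and 1679 on the KC2 arrays and 3.42, 11.5 and 19.9 on the KC4 arrays, 99.8-fold (2 KC4 arrays at the floor) higher in KC2, and the KC4 arrays lay at or just above the floor. Pgrmc1, a haem-binding membrane protein, read 5206, 5858 and 5793 on the KC2 arrays and 102, 98.2 and 61.2 on the KC4 arrays, a log2 difference of 6.04 (SE 0.17). Clca3a1, a secreted regulator of chloride channels, read 3344, 3274 and 3104 on the KC2 arrays and 48.9, 59.1 and 54.3 on the KC4 arrays, a difference of 5.91 (SE 0.26). Neither gene was at the floor in KC4, so both differences are measured on both sides. Fhit, a tumour suppressor gene that spans a fragile site, read 905, 899 and 934 on the KC2 arrays and 13.96, 15.7 and 8.62 on the KC4 arrays and was at least 57.03-fold higher. Rasgrp3, an exchange factor that activates RAS proteins, read 3041, 2935 and 2859 on the KC2 arrays and 46.01, 55.7 and 68.5 on the KC4 arrays, a difference of 5.72 (SE 0.12). The rest of the 15 highest were Gbp8, Gpr85, Cdkn2b, Nexmif, Gpsm3, Rnf128, Ppbp and Kctd12b, and the last of them was 46.8-fold (2 KC4 arrays at the floor) higher.

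**Figure D1:**
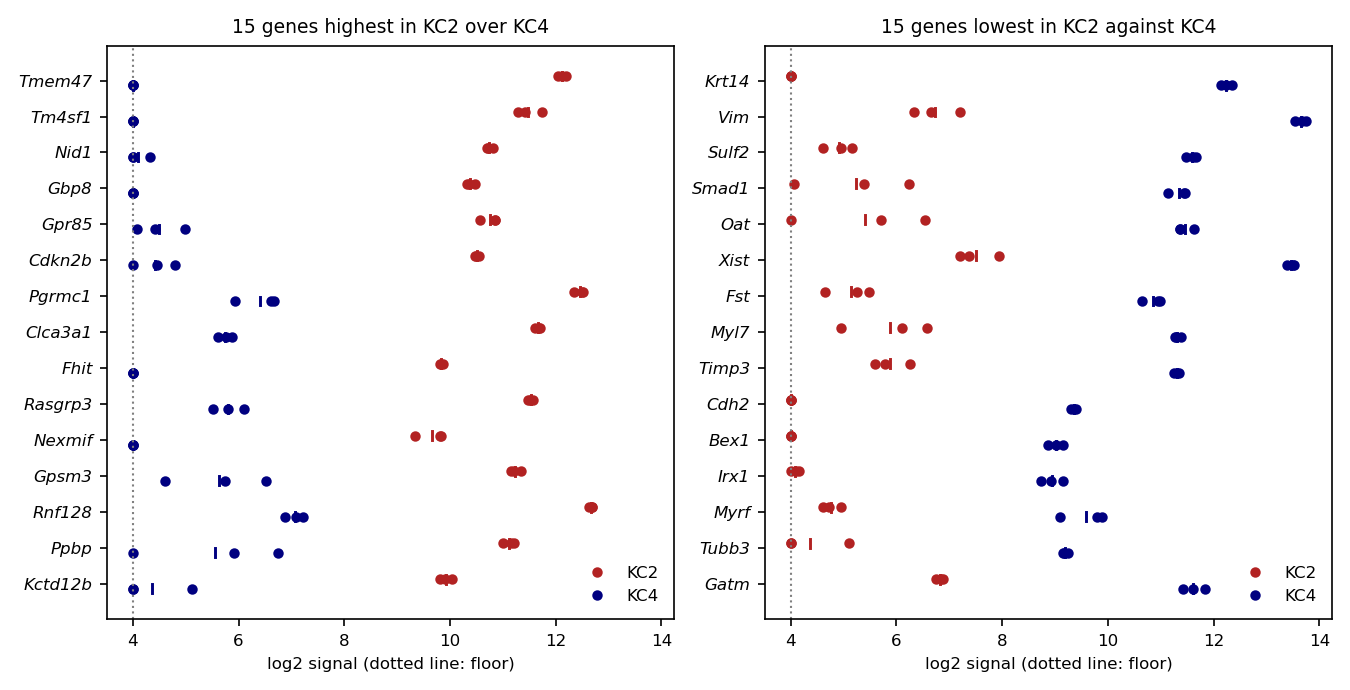
Log2 signal on each array for the 15 genes with the largest called difference in each direction, KC2 in red and KC4 in blue, with a short bar at the mean of the 3 arrays and a dotted line at the floor of 4. No KC2 point reaches a KC4 point of the same gene. Tmem47, Tm4sf1, Gbp8, Fhit and Nexmif lie on the floor in KC4, and Krt14, Cdh2 and Bex1 lie on it in KC2.

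The genes lowest in KC2 include a basal keratin, vimentin and regulators of growth factors outside the cell. Krt14, the keratin of basal epithelial cells, read 15.3, 4.04 and 9.32 on the KC2 arrays and 5228, 4504 and 4791 on the KC4 arrays, and was at least 302-fold lower in KC2. Vim, the intermediate filament protein of mesenchymal cells, read 101, 148 and 81.1 on the KC2 arrays and 13787, 11873 and 13044 on the KC4 arrays. Every KC4 array was above every KC2 array by a wide margin, and the log2 difference was -6.92 (SE 0.19), or 121-fold. Sulf2, which removes sulfate groups from heparan sulfate, read 30.9, 35.96 and 24.5 on the KC2 arrays and 3266, 2852 and 3128 on the KC4 arrays at the probe set used. Of its other probe sets, 1 gave a difference of -4.18 and was called and 1 gave -0.24 and was not. Oat, the ornithine aminotransferase of mitochondria, read 92.7, 8.69 and 51.98 on the KC2 arrays and 3172, 2638 and 2639.5 on the KC4 arrays and was 65.9-fold (1 KC2 array at the floor) lower. Myl7, a myosin light chain best known from the atrium, read 30.96, 69.3 and 95.5 on the KC2 arrays and 2670.3, 2486 and 2496 on the KC4 arrays. Gatm, the first enzyme of creatine synthesis, read 118, 115 and 107 on the KC2 arrays and 3658, 2731 and 3114 on the KC4 arrays, a difference of -4.80 (SE 0.11). In Myl7 and Gatm the KC2 arrays were low but above the floor. Smad1, Xist, Fst, Timp3, Cdh2, Bex1, Irx1, Myrf and Tubb3 complete the 15 lowest, and most are described with their groups. Among the genes whose values are printed here, the probe sets of Aars, Angptl4, Asns, Clca3a1, Cldn3, Egfl7, Gpt2, Hes6, Il1rl2, Itga5, Krt14, Ltbp3, Mt1, Muc4, Notch3, Shmt2, Snai2, Sulf2, Vegfd and Xist have the ending x_at or s_at, which marks designs that can pick up related transcripts.

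Most tight junction genes measured were higher in KC2. Of 19 measured tight junction genes, 11 were called higher and Cldn9 was called lower, with a median log2 difference of 1.02. Claudins form the sealing strands of these junctions. Cldn18, whose lung form is made by alveolar epithelium, read 3506, 3306 and 3515 on the KC2 arrays and 144, 168 and 155 on the KC4 arrays, a difference of 4.47 (SE 0.1) with an adjusted p of 7.48e-09. Cldn2, a claudin that lets cations pass, read 1224, 1175 and 1299 on the KC2 arrays and 84.5, 16.7 and 84.8 on the KC4 arrays, a difference of 4.64 (SE 0.53), while another of its probe sets gave 0.76 and was not called. The KC2 arrays of both genes were tightly grouped, and KC4 replicate 2 was the dimmest for Cldn2. Cldn6, a claudin of embryonic epithelium, read 11203, 13964 and 12539 on the KC2 arrays and 3211, 2631 and 2755 on the KC4 arrays, a difference of 2.13 (SE 0.11). Cldn3 and Cldn4 are neighbours in the genome and bind the same bacterial toxin. Cldn3 differed by 1.86 (SE 0.067) and Cldn4 by 1.70 (SE 0.052). Cldn4 read 3906, 4266 and 4213 on the KC2 arrays and 1234, 1280.2 and 1289 on the KC4 arrays, bright in both lines. Cldn8, Cldn23, Marveld3, Ocln, Cgn and Cldn7 were called too, from 12.03-fold (2 KC4 arrays at the floor) for Cldn8 down to 1.01 on the log2 scale for Cldn7. The scaffold gene Tjp1 differed by 0.17 (SE 0.073) and the adhesion gene F11r by 0.16 (SE 0.063), and neither was called.

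Other genes of epithelial identity pointed the same way, with 7 of 21 called higher and 14 not called (median 0.45). Epcam, an epithelial adhesion protein, read 12328, 14574 and 14159 on the KC2 arrays and 6714, 6039 and 6335 on the KC4 arrays, a difference of 1.10 (SE 0.074). Ap1m2, the sorting adaptor that epithelial cells use for their basolateral surface, read 3998, 4141 and 4355 on the KC2 arrays and 771, 600.5 and 596 on the KC4 arrays, a difference of 2.68 (SE 0.093) and a clear separation. Several membrane serine proteases of epithelium and an inhibitor of them were called within this group, while Spint2, another inhibitor, was not called. Tmprss2 read 2162, 2483 and 2033 on the KC2 arrays and 276, 397 and 385 on the KC4 arrays, Prss8 differed by 2.25 (SE 0.15), St14 by 1.19 (SE 0.069) and their inhibitor Spint1 by 1.49 (SE 0.047). The factors Elf3 and Ovol1, which act in epithelial differentiation, differed by 1.37 (SE 0.057) and 1.23 (SE 0.14). Among 10 adherens genes, Epcam was called higher, Cdh3, a cadherin of basal cells, lower at -2.52 (SE 0.43), and 8 were not called. Over the whole epithelial list, 19 of 50 genes were called higher and 2 lower, with a median of 0.53. Of the 13 epithelial genes higher in KC2 that have a RefSeq promoter here, 5 hold the E-box CAGGTG on either strand (38.5%), namely Ap1m2, Cldn4, Cldn6, Elf3 and Epcam. It is held by 9 of 20 epithelial genes that were not called (45%) and by 17.1% of all 27025 promoters.

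**Figure D2:**
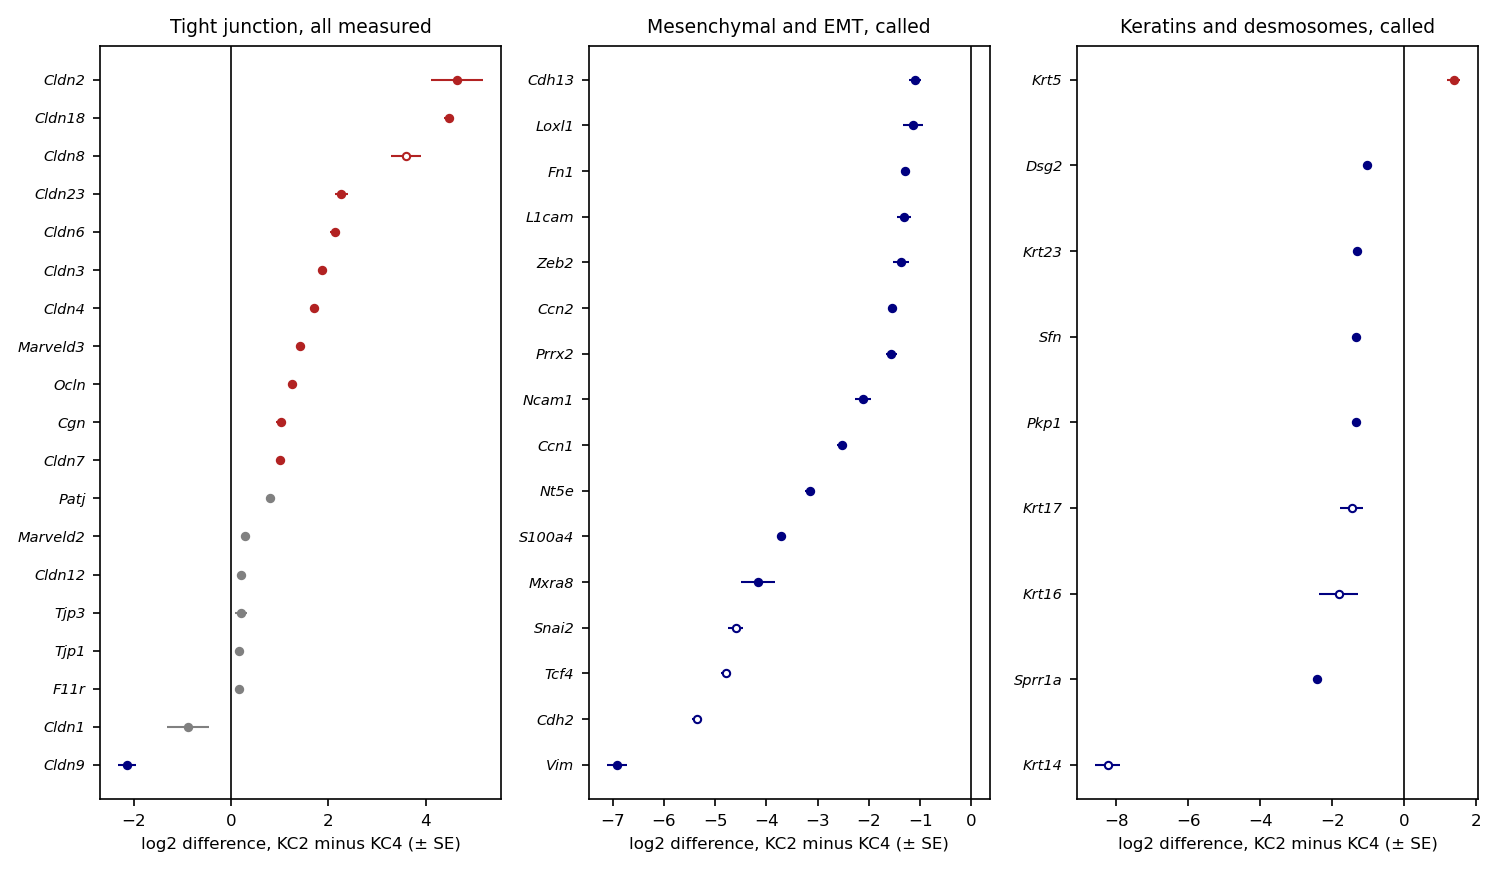
Log2 difference KC2 minus KC4 with its SE for the 19 measured tight junction genes (left), the 16 called mesenchymal genes (middle) and the 9 called keratin and desmosome genes (right). Red marks genes called higher in KC2, blue genes called lower, grey genes not called, and open circles genes with at least 1 array of the dimmer line at the floor. Cldn9 is the blue point among the tight junction genes, and Krt5 the red one among the keratins.

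A subset of mesenchymal genes was lower in KC2. Of 49 measured genes of the mesenchymal and EMT list, 16 were called lower and 33 were not called, with a median of -0.14. Cdh2, the cadherin that mesenchymal carcinoma cells take on, read 2.6, 0.496 and 5.49 on the KC2 arrays and 635, 653 and 676 on the KC4 arrays and was at least 40.9-fold lower in KC2, which was at the floor throughout. Snai2, a repressor of the Snail family, read 19.3, 9.76 and 24.5 on the KC2 arrays and 456, 434 and 546 on the KC4 arrays, 24.3-fold (1 KC2 array at the floor) lower. Tcf4, a basic helix-loop-helix factor that can repress Cdh1, read 16.2, 2.15 and 8.79 on the KC2 arrays and 402, 494 and 446 on the KC4 arrays, 27.8-fold (2 KC2 arrays at the floor) lower. Each of these genes was clearly lit on every KC4 array and lay at or near the floor in KC2. Zeb2 was called at -1.37 (SE 0.15) at the probe set used. Its other probe sets gave larger differences of -4.87, -4.17, -3.45 and -2.38, all called lower. Zeb1 differed by 0.04 (SE 0.38), and Snai1 by -0.01 (SE 0.2), neither called, while Twist1 was at the floor on all 6 arrays. Fn1, fibronectin, read 1959, 2166 and 1955 on the KC2 arrays and 4838, 4808 and 5212 on the KC4 arrays, a difference of -1.29 (SE 0.068). S100a4, a calcium-binding protein of motile cells, read 254, 238 and 253 on the KC2 arrays and 3360, 3131 and 3285 on the KC4 arrays, a difference of -3.71 (SE 0.081). Nt5e, the ectoenzyme CD73, differed by -3.15 (SE 0.1), and Mxra8, a matrix remodelling protein, by -4.16 (SE 0.33). The 16 called mesenchymal genes were thus brighter in KC4, the line labelled poorly metastatic, than in KC2. The Cdh1 signal of KC4 was bright as well, with a difference of -0.48 (SE 0.13) that was not called. Across the 4 lines, Vim and Cdh2 were brightest in KC4, but Snai2 was not. Snai2 read 906 ± 49.2 in KC1 and 1618 ± 137 in KC3, both labelled highly metastatic, against 478 ± 59.5 in KC4 (SD, n = 3).

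Keratins of stratified epithelium were among the called genes. Of 15 basal and squamous genes, 5 were called lower in KC2 and Krt5 higher. Krt5, the usual partner of Krt14, read 307, 306 and 268 on the KC2 arrays and 104, 126 and 112 on the KC4 arrays, dim in both lines and a difference of 1.37 (SE 0.18). Sprr1a, a cornified envelope protein, read 190.2, 169.8 and 151 on the KC2 arrays and 969, 988 and 816 on the KC4 arrays, a difference of -2.44 (SE 0.091). Krt16 and Krt17, neighbours of Krt14, read near the floor in KC2 and at most at 123 and 65.1 on a KC4 array, and Krt16 lost its call without KC2 replicate 2, KC4 replicate 2 or KC4 replicate 3. Dsg2 and Pkp1, parts of desmosomes, were called at -1.03 (SE 0.035) and -1.35 (SE 0.071). Over the 32 keratin and desmosome genes, 1 was called higher and 8 lower, with a median of 0.00.

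TGF-β superfamily genes were called in both directions. Of 58 measured genes, 5 were called higher and 11 lower, with a median of -0.06. Among the ligands, Bmp4 read 167, 184 and 169 on the KC2 arrays and 3890.1, 3287 and 3438 on the KC4 arrays, a difference of -4.35 (SE 0.11). Bmp8b, a related ligand, read 610.3, 718 and 794 on the KC2 arrays and 3.7, 7.13 and 4.01 on the KC4 arrays and was at least 43.97-fold higher, with each KC4 array at the floor. Inhbb and Inhba, the β subunits of activins, were lower in KC2 at -3.61 (SE 0.091) and -2.22 (SE 0.54). Inha, the α subunit that joins a β subunit to form inhibin, was higher at 1.56 (SE 0.13). A dim second probe set of Inhbb gave -0.69 and was not called. The activin receptor genes Acvr1b and Acvr2b were higher at 1.12 (SE 0.062) and 1.62 (SE 0.11). Smad1, which carries the BMP signal to the nucleus, read 75.9, 41.8 and 16.8 on the KC2 arrays and 2763, 2260.2 and 2814 on the KC4 arrays. The KC2 arrays were spread between 16.8 and 75.9, all far under KC4, and the difference was -6.11 (SE 0.43). The antagonist Fst, which binds activins, read 44.9, 25.05 and 38.4 on the KC2 arrays and 1978, 2027 and 1599 on the KC4 arrays, a difference of -5.73 (SE 0.2). Fstl3 and Bmper, both ligand-binding proteins, were lower too, at -2.00 (SE 0.31) and -2.15 (SE 0.32). Ltbp3, which holds latent TGF-β in the matrix, was higher at 2.33 (SE 0.076). Id3, a target of BMP signalling, read 1500.4, 1607 and 1412 on the KC2 arrays and 4372, 4537 and 4399.6 on the KC4 arrays, a difference of -1.56 (SE 0.14). Of the 6 measured target genes in the list, 1 was called lower and 5 were not called, with a median of -0.34. Bmp4, Smad1 and Id3 were thus brighter in KC4, and Bmp8b in KC2.

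Among 59 Wnt genes, 2 were called higher and 4 lower, with a median of -0.0051. That is 10.2% called, close to the 9.48% called over all genes. Wnt10a, a ligand, read 1434, 1673 and 1519 on the KC2 arrays and 245, 226 and 228 on the KC4 arrays, a difference of 2.72 (SE 0.071). Axin2, a feedback inhibitor that Wnt signalling induces, read 184, 162 and 101 on the KC2 arrays and 814, 790.2 and 849 on the KC4 arrays, a difference of -2.50 (SE 0.31) in the other direction. Ccn4, also known as a Wnt-induced secreted protein, was at least 16.3-fold lower in KC2. Of 26 Notch genes, 4 were called higher and 22 were not called (15.4% called, against 9.48% over all genes). They were the ligand Jag1 at 1.23 (SE 0.15), the receptor Notch3 at 1.22 (SE 0.11), the DNA-binding partner Rbpj at 1.42 (SE 0.06) and Hes6 at 1.28 (SE 0.12). All but Hes6 lost the call when the probe sets of a gene were averaged. Of the 22 measured genes of the RAS core, limma called 0. Of these, 7 had an unadjusted p under 0.05 and 6 an adjusted p under 0.05, with differences under the size asked for.

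Angiogenic factors and their receptors were higher in KC2 in 5 of 14 cases and lower in 2. Pgf, a ligand of a VEGF receptor, read 602, 734 and 701 on the KC2 arrays and 16.99, 19.3 and 22.7 on the KC4 arrays, a difference of 5.12 (SE 0.33). Vegfb differed by 1.73 (SE 0.099), Angpt2 by 1.82 (SE 0.19), Angptl4 by 1.54 (SE 0.14) and the co-receptor Nrp1 by 1.45 (SE 0.25), and all were higher. Vegfd and its receptor Flt4 were lower, at -1.61 (SE 0.2) and -1.26 (SE 0.19). Binding proteins of insulin-like growth factors moved apart. Igfbp4 read 12091, 14138 and 14405 on the KC2 arrays and 818, 1018 and 934 on the KC4 arrays, a difference of 3.88 (SE 0.088), and Igfbp7 read 950.1, 1125 and 1051 on the KC2 arrays and 7723, 6299 and 7157 on the KC4 arrays, a difference of -2.76 (SE 0.095). The receptor tyrosine kinase genes Met and Egfr were higher, Met at 1.30 (SE 0.18) and Egfr at 1.06 (SE 0.1), and another probe set of Egfr was called at 1.36, although 5 more gave -0.10 to 0.67 and were not called. Nrg1, a ligand of ERBB receptors, was lower at -2.46 (SE 0.35). The early-response genes Jun, Junb and Fos were lower at -1.75 (SE 0.12), -1.17 (SE 0.073) and -1.16 (SE 0.078).

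Matrix and protease genes went both ways. Of 52 collagen and basement membrane genes, 5 were called higher and 6 lower (21.2% called, median 0.01). Of 19 integrins, 3 were called lower and 16 were not called (15.8% called). Within the basement membrane, Nid1 was high in KC2 while the collagen IV chains Col4a1, Col4a2 and Col4a5 were lower at -1.002 (SE 0.087), -1.23 (SE 0.051) and -3.72 (SE 0.24). Plod2, which hydroxylates lysines of collagen for cross-linking, read 3604, 3857 and 3836 on the KC2 arrays and 209.8, 266 and 266 on the KC4 arrays, a difference of 3.94 (SE 0.085). Itga5, the fibronectin-binding integrin chain, read 11.04, 10.4 and 9.49 on the KC2 arrays and 178, 246 and 213 on the KC4 arrays, at least 13.2-fold lower, alongside the lower Fn1. Itgb1, its β chain, differed by -1.12 (SE 0.077). Has2, which makes hyaluronan, was lower at -3.54 (SE 0.41), and Gpc1, a heparan sulfate proteoglycan, at -2.08 (SE 0.099). Timp3, an inhibitor of metalloproteases that stays in the matrix, read 76.4, 54.9 and 48.5 on the KC2 arrays and 2534, 2430.2 and 2603 on the KC4 arrays, a difference of -5.42 (SE 0.54). Timp1, its secreted relative, read 837, 937 and 878 on the KC2 arrays and 4361, 3632 and 4132 on the KC4 arrays, a difference of -2.19 (SE 0.082). Both inhibitors were thus lower in KC2. Mmp13, a collagenase, read 716, 718 and 708 on the KC2 arrays and 53.9, 68.3 and 48.5 on the KC4 arrays, a difference of 3.67 (SE 0.13), and the plasminogen activators Plau and Plat were higher at 2.31 (SE 0.088) and 1.66 (SE 0.071). Mmp9, Mmp10 and Mmp24 went the other way, and Mmp24 differed by -1.43 (SE 0.099). Over 31 proteases, 7 were called higher and 6 lower. Of 14 inhibitors, 2 were called higher, the cathepsin inhibitors Ctla2a at 3.60 (SE 0.13) and Ctla2b at 2.90 (SE 0.043), and 3 lower.

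Lineage genes of the lung were called in both directions, and the called genes of a gut-like and mucin list were all higher. Of 56 lung lineage genes, 8 were called higher and 5 lower (23.2% in all, median -0.02). Sftpd, a surfactant protein of innate defence, read 1305, 1358 and 1178 on the KC2 arrays and 132, 168 and 165 on the KC4 arrays, a difference of 3.05 (SE 0.27), while Sftpc was low in both lines. Muc1, the transmembrane mucin, read 4819, 6445 and 5907 on the KC2 arrays and 1102, 1154 and 1249.9 on the KC4 arrays, a difference of 2.28 (SE 0.11). Cebpa, a differentiation factor of alveolar cells, was 5.28-fold (1 KC4 array at the floor) higher, and Foxa2 was lower at -2.35 (SE 0.32) while Foxa1 was higher at 1.13 (SE 0.052). Of 41 gut-like and mucin genes, 6 were called higher and 35 were not called (14.6% called, against 9.48% over all genes). By role, 0 of 8 gut factors, 3 of 24 gut products (12.5%) and 3 of 9 mucins were called. Muc1 is counted in both the lung and the mucin list. Fabp2, a fatty acid carrier of enterocytes, read 583, 732 and 631 on the KC2 arrays and 12.9, 47.1 and 13.1 on the KC4 arrays, 28.2-fold (2 KC4 arrays at the floor) higher, and Gpa33, an intestinal surface antigen, read 881, 497 and 442 on the KC2 arrays and 37.6, 31.9 and 34.8 on the KC4 arrays, a difference of 4.06 (SE 0.25). Muc4 and Muc16 were higher at 2.15 (SE 0.25) and 1.57 (SE 0.15), and Muc4 lost its call when probe sets were averaged. Among transcription factors outside these lists, Runx3, Pparg and Gata3 were near or at the floor in KC2 and were 25.6-fold (2 KC2 arrays at the floor), 27.7-fold (2 KC2 arrays at the floor) and at least 14.3-fold lower. Myrf, a membrane-bound transcription factor, read 30.8, 24.3 and 26.6 on the KC2 arrays and 547, 885 and 944 on the KC4 arrays, a difference of -4.83 (SE 0.21). Eya1 and Tcf24 were higher at 2.87 (SE 0.24) and 4.67 (SE 0.18).

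**Figure D3:**
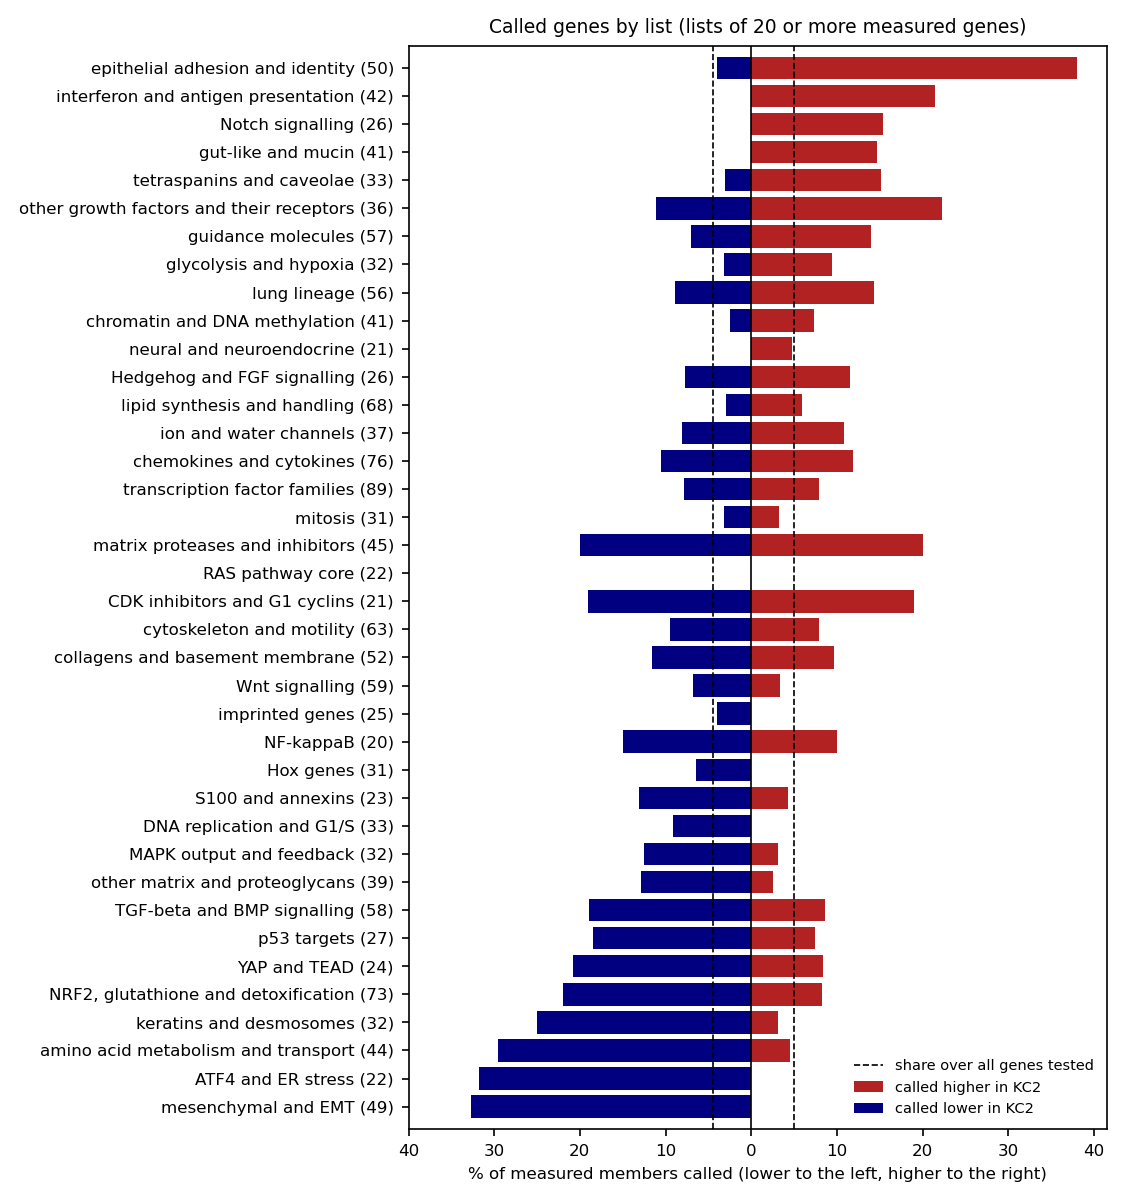
Percentage of the measured members of each list called higher in KC2 (red, to the right) or lower (blue, to the left), with the number measured in brackets, for lists of at least 20 measured genes. Dashed lines show the share over all 18193 genes, 5.02% and 4.46%. The epithelial list reaches farthest to the right, and the mesenchymal and ATF4 lists farthest to the left with no higher member.

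A number of genes of the ATF4 pathway were lower in KC2, together with genes for making, importing and charging amino acids. Of 22 ATF4 and ER stress genes, 7 were called lower and 15 were not called, with a median of -0.60. Of 44 amino acid genes, 13 were called lower and 2, Glul and Asl, higher, with a median of -0.31. Chac1, which degrades glutathione and is induced by ATF4, read 565, 509 and 486 on the KC2 arrays and 4145, 3871 and 3988 on the KC4 arrays, a difference of -2.95 (SE 0.058) with an adjusted p of 3.31e-09. Asns, the asparagine synthetase, read 2512, 2567 and 2087 on the KC2 arrays and 10418, 9514 and 10713 on the KC4 arrays, a difference of -2.10 (SE 0.083) with an adjusted p of 1.66e-07. The 3 arrays of each line lay close together and the lines were far apart in both. Trib3, a pseudokinase induced by ATF4, read 482, 601 and 418 on the KC2 arrays and 2465, 2215 and 2571 on the KC4 arrays, a difference of -2.29 (SE 0.14). Atf4 itself read 3397, 5719 and 3363 on the KC2 arrays and 9215, 7454 and 8201 on the KC4 arrays, a difference of -1.04 (SE 0.19), with KC2 replicate 2 above the other KC2 arrays. Ddit3, the stress factor CHOP, differed by -1.15 (SE 0.15) and lost its call without KC2 replicate 2. The ER chaperone genes Hspa5, Calr and Hsp90b1 differed by 0.07 (SE 0.19), 0.15 (SE 0.076) and -0.19 (SE 0.14) and were not called, while Dnajc3, a co-chaperone of the ER, was called at -1.04 (SE 0.11).

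By role, several genes of serine and one-carbon synthesis were lower in KC2. Mthfd2, the mitochondrial folate enzyme, read 606, 699 and 515 on the KC2 arrays and 5733, 4813 and 5664 on the KC4 arrays, a difference of -3.16 (SE 0.11). Psph, the last enzyme of serine synthesis, read 1119, 923 and 948 on the KC2 arrays and 5246, 4798 and 6002 on the KC4 arrays, a difference of -2.42 (SE 0.095), and Shmt2, which splits serine in mitochondria, differed by -1.40 (SE 0.066). Cth, which makes cysteine, differed by -2.05 (SE 0.054), and Gpt2, an alanine transaminase, by -2.59 (SE 0.11). The importers of large neutral amino acids form a heterodimer, and both subunits were lower, Slc7a5 at -2.27 (SE 0.066) and Slc3a2 at -1.57 (SE 0.072). Bcat1 was called at -3.05 (SE 0.24), but lost the call when the probe set was chosen over the 6 arrays, since another probe set gave -0.25, while its remaining one was called at -2.75. In the other direction, Glul, which makes glutamine, read 3172, 3126 and 4146 on the KC2 arrays and 1280.4, 1306 and 1356 on the KC4 arrays, a difference of 1.39 (SE 0.11).

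Cytosolic aminoacyl-tRNA synthetases, which attach amino acids to transfer RNA, are a family added after the values were seen. Of 19 measured, 8 were called lower and 11 were not called, with a median of -0.78 and a range from -2.95 to 0.73. Aars, for alanine, read 632, 763 and 635 on the KC2 arrays and 5375, 4891 and 5341 on the KC4 arrays, a difference of -2.95 (SE 0.083). Mars1, for methionine, read 678, 808 and 596 on the KC2 arrays and 3029, 3038 and 3085 on the KC4 arrays, a difference of -2.15 (SE 0.095), and Lars, for leucine, differed by -1.62 (SE 0.079). Qars and Vars, for glutamine and valine, had positive differences of 0.73 (SE 0.064) and 0.49 (SE 0.14) and were not called. Of the 16 measured synthetases of mitochondria, 1, Lars2, was called lower, with a median of -0.18. Of 18 ATF4, ER stress and amino acid genes lower in KC2 with a promoter here, Asns, Chac1 and Herpud1 hold TGATGNAA on either strand (16.7%). Over all promoters the share was 3.53%. List members that were not called were not counted, so the higher share cannot be tied to being lower in KC2.

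**Figure D4:**
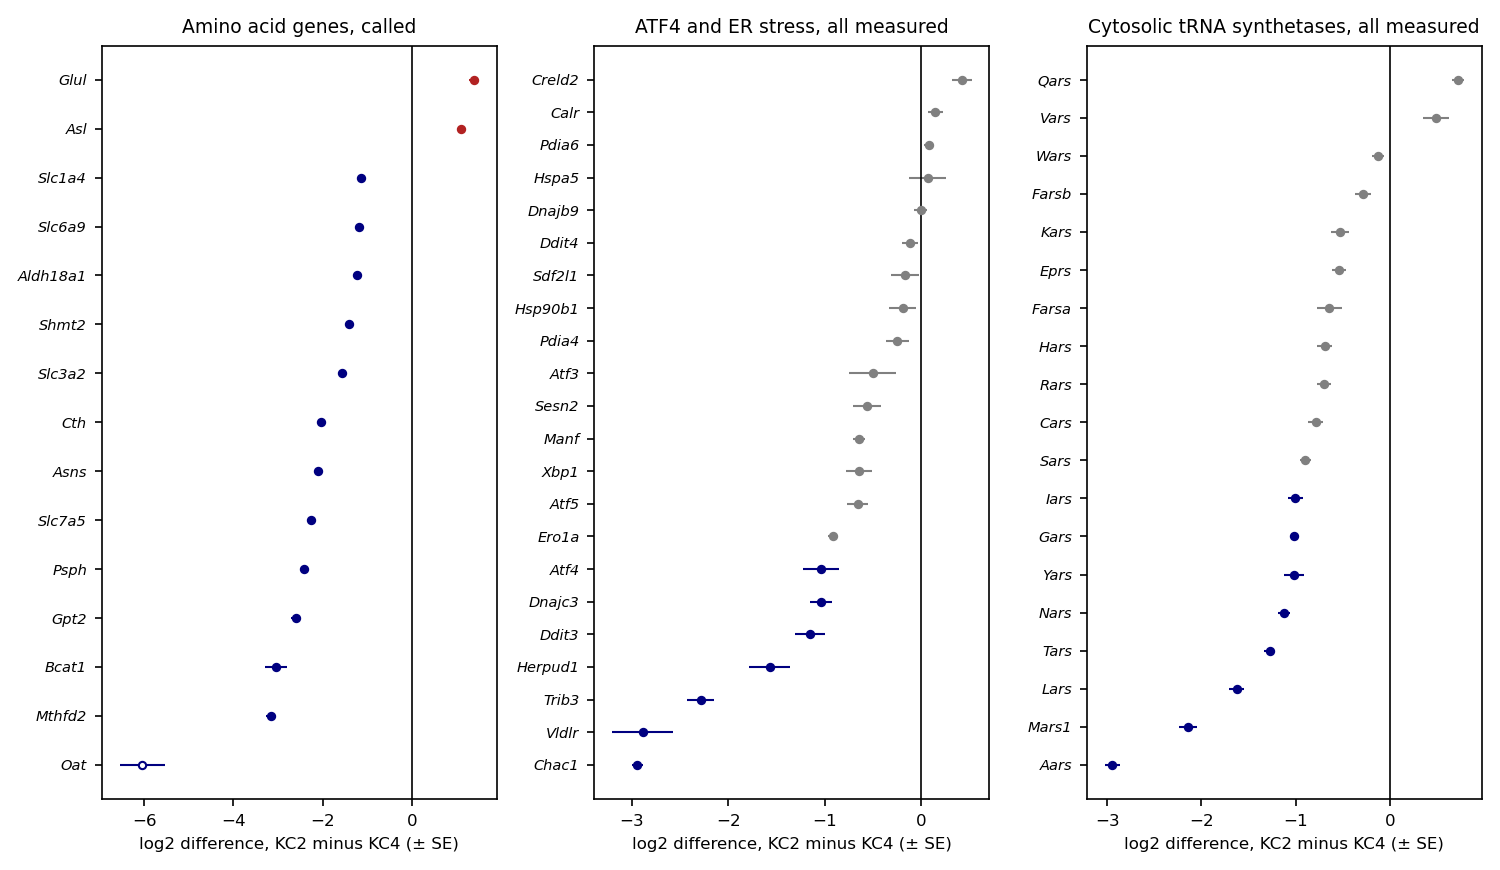
Log2 difference KC2 minus KC4 with its SE for the 15 called amino acid genes (left), the 22 measured ATF4 and ER stress genes (middle) and the 19 measured cytosolic aminoacyl-tRNA synthetases (right). Colours are red for called higher, blue for called lower and grey for not called, and the open circle is Oat, with 1 KC2 array at the floor. Glul and Asl are the red points, and 17 of the 19 synthetases lie below 0.

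Of the redox and detoxification genes, 16 of 73 were called lower in KC2 and 6 higher (median -0.10). Slc7a11, the cystine importer, read 121, 81.1 and 112 on the KC2 arrays and 673, 927 and 802 on the KC4 arrays, a difference of -2.94 (SE 0.18). Gclm and Gclc, the subunits of the enzyme that starts glutathione synthesis, were lower at -2.13 (SE 0.095) and -1.05 (SE 0.098). Nqo1 and Hmox1, standard targets of NRF2, were lower as well, Nqo1 7.64-fold (1 KC2 array at the floor) lower and Hmox1 by -2.63 (SE 0.16) on the log2 scale. Mgst1, a membrane glutathione transferase, read 306, 322 and 354 on the KC2 arrays and 2146, 1995 and 2045 on the KC4 arrays, a difference of -2.66 (SE 0.062). Several aldehyde dehydrogenases were lower. Aldh2 read 593, 596 and 646 on the KC2 arrays and 4806, 4732 and 4839.9 on the KC4 arrays, a difference of -2.97 (SE 0.058), and Aldh3a1 read 133, 117 and 150.1 on the KC2 arrays and 1628, 1681 and 1634 on the KC4 arrays, a difference of -3.63 (SE 0.12). Aldh1a1 and Aldh3a2 differed by -1.40 (SE 0.35) and -1.23 (SE 0.077). Abcc3, an exporter of conjugates that NRF2 can also induce, went the other way and read 2012, 2266 and 2345 on the KC2 arrays and 141, 122 and 90.8 on the KC4 arrays, a difference of 4.25 (SE 0.2). The drug exporters Abcb1a and Abcb1b were higher at 1.30 (SE 0.12) and 1.38 (SE 0.16), as were the neighbouring aldo-keto reductases Akr1c12, Akr1c13 and Akr1c19, the first at 3.86 (SE 0.23), the second at 1.88 (SE 0.07) and the last 6.36-fold (1 KC4 array at the floor). The metallothioneins Mt2 and Mt1 were lower at -2.29 (SE 0.1) and -1.07 (SE 0.074), and Mt1 lost its call when probe sets were averaged. Of 4 lower NRF2 targets with a promoter here, 1, Gclm, holds the antioxidant response element TGACNNNGC, as do 10.1% of all promoters. The promoters of Mt1 and Mt2 both hold a metal response element (TGCACNC or TGCGCNC), as do 21.3% of all promoters. For neither element were genes that were not called counted.

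Interferon-responsive and antigen presentation genes were higher in KC2 in 9 of 42 cases, and 33 were not called (median 0.17). That is 21.4% called, against 9.48% over all genes. By role, 5 of 30 interferon genes (median 0.03) and 4 of 12 MHC class I genes (median 0.44) were called higher. Usp18, an interferon-induced protease, read 593, 558 and 570.4 on the KC2 arrays and 100.1, 123 and 97.9 on the KC4 arrays, a difference of 2.43 (SE 0.1), and Mx1, an antiviral GTPase, read 167, 170.1 and 182 on the KC2 arrays and 29.1, 43.2 and 36.00 on the KC4 arrays, a difference of 2.28 (SE 0.19). Gbp8, a guanylate-binding protein, read 1421, 1317 and 1276 on the KC2 arrays and 11.7, 3.58 and 1.27 on the KC4 arrays and was at least 83.5-fold higher. The peptide transporter genes Tap1 and Tap2 and their partner Tapbp differed by 1.02 (SE 0.29), 1.02 (SE 0.2) and 1.12 (SE 0.11), close to the threshold of 1. Of 23 chemokines, 4 were called higher, 2 lower and 17 were not called (26.1% called). Cxcl3, which attracts neutrophils, read 786, 611 and 774 on the KC2 arrays and 16.5, 21.8 and 28.8 on the KC4 arrays, a difference of 5.04 (SE 0.36), and Ppbp, another neutrophil chemokine, read 2062, 2280.2 and 2359 on the KC2 arrays and 15.7, 107 and 60.04 on the KC4 arrays, 47.5-fold (1 KC4 array at the floor) higher. Cxcl5 and Cxcl15 were higher at 1.92 (SE 0.28) and 2.11 (SE 0.27). The T cell chemokines Cxcl10 and Cxcl11 were at least 6.75-fold and 3.2-fold (1 KC2 array at the floor) lower. Both are counted with the chemokines and not in the interferon list above. Csf2, the granulocyte-macrophage growth factor, read 1122, 1258 and 1149 on the KC2 arrays and 162, 20.1 and 89.98 on the KC4 arrays, a difference of 4.14 (SE 0.61), with KC4 arrays spread from 20.1 to 162. Among interleukin-1 genes, the ligand gene Il1a read 65.2, 13.4 and 71.99 on the KC2 arrays and 416, 453 and 467 on the KC4 arrays, 10.5-fold (1 KC2 array at the floor) lower, while the receptor genes Il1r1, Il1r2 and Il1rl2, which lie side by side, were higher, Il1r1 at 3.58 (SE 0.39), Il1r2 8.51-fold (1 KC4 array at the floor) and Il1rl2 20.3-fold (2 KC4 arrays at the floor).

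Regulators of entry into the cell cycle were called in both directions. Of 21 CDK inhibitors, G1 cyclins and related genes, 4 were called higher and 4 lower, 38.1% in all. Cdkn2b, which encodes the inhibitor p15, read 1505, 1442 and 1428 on the KC2 arrays and 11.8, 21.8 and 27.8 on the KC4 arrays, 68.4-fold (1 KC4 array at the floor) higher. Cdkn2a, its neighbour, which encodes p16 and ARF, read 379.6, 380 and 385 on the KC2 arrays and 70.6, 74.2 and 70.2 on the KC4 arrays, a difference of 2.41 (SE 0.15), and Mtap, next along the chromosome, was lower at -1.88 (SE 0.06). The lines thus separated at both inhibitor genes, and Mtap was bright in both. Cdkn2c and Rb1 were lower at -1.17 (SE 0.1) and -1.54 (SE 0.055). Among the D cyclins, Ccnd2 was lower at -1.26 (SE 0.12) and Ccnd3 higher at 1.08 (SE 0.13), and Ccng2, a cyclin of arrested cells, was higher at 1.32 (SE 0.063). Ccne2, a cyclin of S-phase entry, was lower at -1.89 (SE 0.092). Of 33 replication genes, 3 were called lower and 30 were not called (9.09% called, against 9.48% over all genes). Of 31 mitotic genes, 1 was called in each direction (6.45% in all), Cenpf higher and Mad2l1 lower. Rb1 and Cenpf lost their calls when probe sets were averaged, and Mad2l1 without KC2 replicate 1, KC2 replicate 3 or KC4 replicate 1. Mki67, a proliferation marker, differed by -0.60 (SE 0.095) and was not called. Among p53 targets, 2 of 27 were called higher and 5 lower (25.9% called). Gadd45a, which ATF4 also induces, read 211, 196 and 199 on the KC2 arrays and 1963, 1589.7 and 2137 on the KC4 arrays, a difference of -3.22 (SE 0.093). Of 24 measured YAP and TEAD genes, 2 were called higher, 5 lower and 17 were not called (29.2% called), with a median of 0.04. The YAP targets Ccn1 and Ccn2 were lower at -2.52 (SE 0.096) and -1.56 (SE 0.033). The p53 and MAPK lists had medians of 0.06 and 0.04, close to that of all genes.

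Of 8 measured sex-chromosome genes, 3 were called higher in KC2, 1 lower and 4 were not called. Xist, the RNA that coats the inactive X, read 247, 167 and 147 on the KC2 arrays and 11794, 10710 and 11620 on the KC4 arrays, a difference of -5.96 (SE 0.18). The Y-linked genes Uty, Kdm5d and Eif2s3y were higher in KC2, where Uty read 192, 171 and 212 on the KC2 arrays and 33.9, 21.6 and 22.4 on the KC4 arrays, a difference of 2.91 (SE 0.18). At the probe sets used, all 3 KC2 arrays were above all KC4 arrays for these Y-linked genes and below them for Xist. Kdm5d and Uty lost their calls when probe sets were averaged. Other probe sets, all dim and not called, gave 0.90, 0.30 and -0.73 for Uty, -0.73 and -0.01 for Kdm5d and -0.03 for Eif2s3y. The other probe sets of Xist were called lower, at -8.27 and -5.37.

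Called genes stood next to each other in 21 runs of at least 3 neighbours called the same way, 15 higher and 6 lower, in RefSeq gene order. Of the 6 lower runs, 4 were on chromosome 8, among them Nqo1, Nob1, Wwp2 and Psmd7, and Fcsk, St3gal2, Ddx19b and Aars. Each of these 4 runs held a member that lost its call when probe sets were averaged. Those members were Anapc10, Mt1, Wwp2, Psmd7, St3gal2 and Ddx19b. Anapc10, Wwp2 and Ddx19b also lost theirs in some fits without 1 array. Because 4 runs lay on chromosome 8, medians by chromosome were taken over 8737 genes with a mean log2 signal over 8. This view was chosen after the values were seen. On chromosome 8 the median difference of 483 genes was -0.56, 84.1% of them were below 0, and 10 were called higher and 82 lower. The medians of the other 19 chromosomes ran from -0.20 to 0.31, with 23.1% to 68.6% of genes below 0. In windows of 41 neighbouring genes along chromosome 8 the median ran from -0.75 to -0.31. Against the other lines the chromosome 8 median was -0.15 for KC2 minus KC1 and -0.13 for KC2 minus KC3, comparisons that share the KC2 arrays with this one. Aars, Nqo1, Mt1, Mt2, Hhip and Abce1 are among the named genes on it.

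KC1 and KC3 show which of these genes also set KC2 apart from the other lines labelled highly metastatic. The contrasts share the KC2 arrays, and 5.01% of all genes were called for KC2 minus KC1 and 10.8% for KC2 minus KC3. Vim gave a log2 difference of -5.19 (SE 0.19) for KC2 minus KC1 and -2.80 (SE 0.19) for KC2 minus KC3, and was called in both. Snai2 gave -5.53 (SE 0.15) and -6.36 (SE 0.15), Smad1 -5.67 (SE 0.43) and -5.54 (SE 0.43), and Fst -3.23 (SE 0.2) and -3.90 (SE 0.2), all called, and 1 KC2 array of Snai2 was at the floor. KC2 was therefore the low line for these 4 genes. Chac1 gave -1.82 (SE 0.058) against KC1 and -3.19 (SE 0.058) against KC3, Aars -1.79 (SE 0.083) and -2.68 (SE 0.083), Mthfd2 -2.29 (SE 0.11) and -3.02 (SE 0.11), and Slc7a11 -1.54 (SE 0.18) and -2.51 (SE 0.18), again all called lower. Among the higher genes, Tm4sf1 gave 3.25 (SE 0.12) and 3.25 (SE 0.12), Nid1 1.80 (SE 0.29) and 6.32 (SE 0.29), and Cdkn2a 3.28 (SE 0.15) and 3.61 (SE 0.15), called in both, with Nid1 near the floor in KC3.

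Other genes differed from KC4 but were not called against KC1 or KC3. Bmp4 gave 0.49 (SE 0.11) against KC1 and 0.21 (SE 0.11) against KC3. Cldn4 gave 0.14 (SE 0.052) and 0.36 (SE 0.052), Ap1m2 0.05 (SE 0.093) and -0.01 (SE 0.093), and Pgrmc1 0.12 (SE 0.17) and 0.68 (SE 0.17). The signal of S100a4 was 3259 ± 117 (SD, n = 3) in KC4 and 372 ± 8.15, 249 ± 8.85 and 410 ± 52.8 in KC1, KC2 and KC3. KC4 was the line that stood away from the others in these means. Still other genes paired KC2 with a single line. Cdkn2b was not called against KC3 (0.01 (SE 0.2)) and was called against KC1 (6.32 (SE 0.2), with 2 KC1 arrays at the floor), while Cldn18 was not called against KC1 (0.26 (SE 0.1)) and was called against KC3 (4.62 (SE 0.1)). Usp18 was lower in KC2 than in KC1 (-1.04 (SE 0.1)) and higher than in KC3 (1.72 (SE 0.1)), and KC3 and KC4 were the dimmest lines for it.

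**Figure D5:**
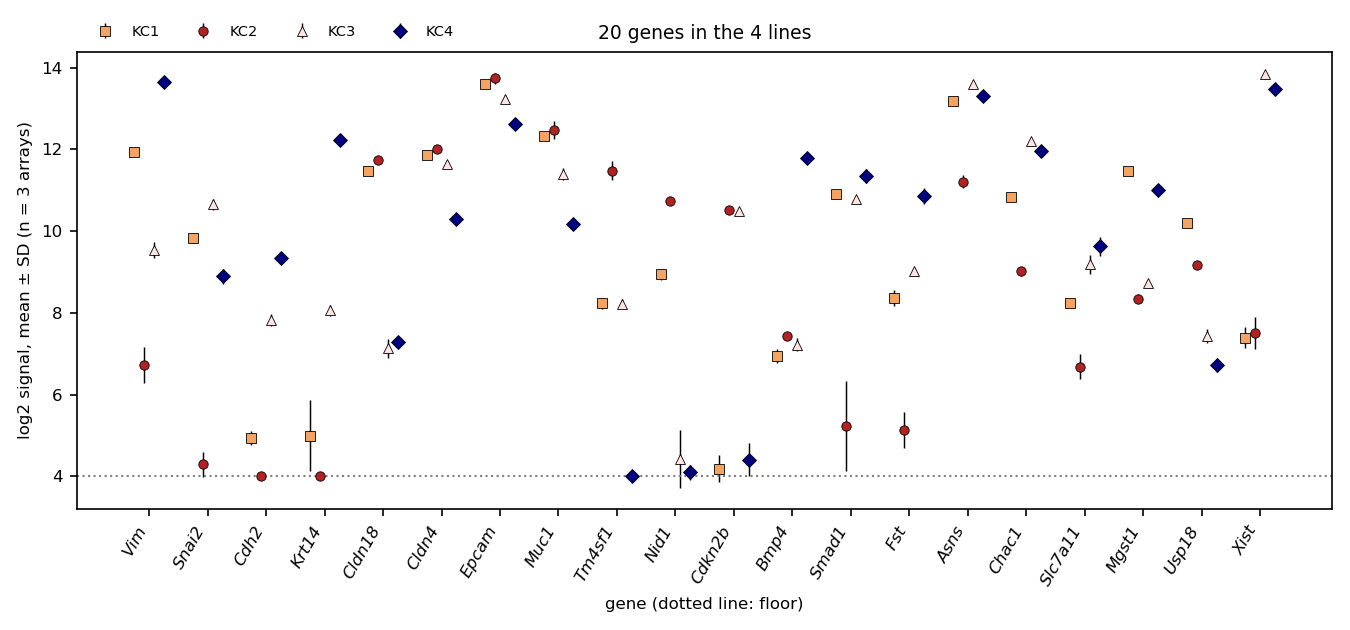
Mean log2 signal with its SD over 3 arrays in KC1 (orange squares), KC2 (red circles), KC3 (pale triangles) and KC4 (blue diamonds) for 20 genes, with the floor of 4 dotted. KC2 is the lowest line for Vim, Snai2, Smad1, Fst, Asns and Chac1 and the highest for Tm4sf1 and Nid1. KC4 stands away from the other lines at Bmp4 and Cldn4.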

How the data were processed

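Total RNA of the lines was labelled with biotin and hybridised to one-colour Affymetrix 3-prime expression arrays, per the labels. The deposited values are linear intensities, 1 for each of 45101 probe sets on each of 12 arrays. How the authors summarised, background-corrected and scaled the intensity readings is not stated: the software and its settings are not given by the sources used here. Scaling every array to the same average hides a change in total RNA per cell.

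After 64 control probe sets were left out, 34945 probe sets with a single gene symbol in the platform annotation were used, and each of 18193 genes was read by the probe set with the highest mean over all arrays. Signals were floored at 16 and log2 values were fitted with limma 3.58.1 (R 4.3.3, functions lmFit and eBayes) over all 12 arrays, with each line as a coefficient and no replicate block. The code was tested on simulated data. The labels number the replicates within a line, and same-numbered KC2 and KC4 arrays did not deviate together (correlations of -0.31, -0.35 and 0.0024), so they were not paired.

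The comparison, the 47 gene lists and the tests were chosen with earlier results of these data known, so a list gets counts and a median and no test of its own. The lists name 1718 genes, of which 104 lacked a probe set of their own here and were not analysed. Named genes are the 15 largest called differences in each direction, up to 5 of the largest per list, a few defining genes, Cdkn1a, sex-chromosome genes and members of runs. Other genes named as part of a counted group were chosen after their values were seen. Promoters, and gene order for the runs, are RefSeq's for GRCm38.p6. Figures were drawn with matplotlib 3.10.9. The 3 arrays per line limit the precision, and the spread within a line (median SD of log2 values) was 0.40 for genes averaging under 6 and 0.096 for those over 10.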

Additional observations from a re-analysis of the deposited data

Results flagged for a closer look

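Probe sets that the platform annotation ties to no single gene stand outside the comparison above, and 540 of 10092 were called between KC2 and KC4 (348 higher and 192 lower in KC2), or 5.35%, against 8.75% of the probe sets with a single gene. Among them, the probe set with the largest difference upward that the annotation does not list read 4002, 1869 and 3240 on the KC2 arrays and 22.0, 35.9 and 12.6 on the KC4 arrays, and the one with the largest difference downward read 82.0, 41.3 and 100.1 on the KC2 arrays and 3131, 2635 and 2974 on the KC4 arrays. In both the lines were far apart. Their gene names are not given in the annotation used here.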

How the results depend on the processing

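Of 247 called named genes, 57 lost their call in at least 1 of 16 other fits and none changed direction. The other 190 were called in every one of these fits that tested them, but the fit of the brighter genes tested 157 of the 247. Leaving out 1 array at a time gave 1690 to 1753 calls (880 to 943 higher and 784 to 853 lower), and 20 named genes lost a call in at least 1 of these fits, among them Krt16, Psmb9, Itgb2, Mad2l1, Ddit3, Nrros and Iqcd. The count of calls moved most with the size asked for: 6470 (3278 higher, 3192 lower) with no minimum difference and 486 (249 higher, 237 lower) at a log2 difference of at least 2. Restricting the genes to the brighter 50% left 1050 calls (543 higher, 507 lower), since fewer genes were tested. Median centring, which shifts the median of all genes by -0.044, turned the majority to the lower side, with 846 higher and 912 lower. Averaging all probe sets of a gene gave 1508 calls, a floor of 64 gave 1486, and a fit of the 6 arrays alone gave 1647. With the replicate number as a block 1708 genes were called (905 higher, 803 lower), 1691 of them in the same way, and not every array correlated best with its own number. At a floor of 64, Krt16, Krt17, Relb and Prom1 were among 18 named genes that lost their calls. Averaging probe sets cost 32 named genes theirs, among them Krt17, Rbpj, Jag1, Notch3, Egfr, Rb1, Kdm5d and Uty. With 3 arrays per line, differences of dim genes are the least certain, as their spread is largest.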
